A study of Mus musculus with 9 samples.

Results

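The genes described are 50 genes of mitosis, kinetochore function and cytokinesis, taken by symbol from a table of 53700 genes of the mouse macrophage line RAW264.7. The transcript values of each gene were summed by its gene identifier, and all 50 symbols were found. RAW264.7 cells come from a mouse tumour raised with a leukaemia virus and divide continuously in culture. By their titles the 9 samples form 3 groups of 3, named CON, LPS and ProNa. The treatment text is the same for all samples: 1 mM ProNa was or was not present for 24 h, and LPS at 100 ng/mL followed for 12 h. LPS, the lipopolysaccharide of Gram-negative bacteria, activates macrophages through Toll-like receptor 4. The labels do not expand ProNa. CON is taken to be cells without either agent, LPS to be cells that received LPS only, and ProNa to be cells that received ProNa before LPS. This rests on the titles, since the labels do not say it sample by sample. On that reading no group had ProNa without LPS. All groups share the cell line and its serum-containing medium, and no transgene or deletion is named.

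Mitosis is driven by cyclin-dependent kinase 1 with its A and B cyclins, together with the Aurora and Polo-like kinases. Condensins compact the chromosomes, kinetochores tie each centromere to spindle microtubules, and the spindle checkpoint holds the anaphase-promoting complex (APC/C) in check until every kinetochore is attached. The APC/C then marks securin and cyclin B for destruction, separase opens cohesin, and the central spindle and a contractile ring divide the cell. Most of these genes are transcribed late in the cell cycle, so their transcripts are widely used as a sign of dividing cells.

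Values per library could not be assigned to samples, so each level given is the authors' group mean in FPKM (fragments mapped, scaled to transcript length and library size), with no SD. Tests are those of the authors' deposited table, in which a gene was counted as changed at an adjusted p under 0.05. The labels do not say that the 3 samples of a group are separate cultures, so the p-values measure only the spread between those samples, which may be technical. In bulk RNA, fewer dividing cells and less RNA of these genes per cell cannot be told apart.

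All 50 mitosis genes were lower in LPS than in CON, 28 of them by at least 16-fold. The authors' deposited table calls 50 of 50 lower, where 55.4% of the 17795 genes tested were called, 27.2% lower and 28.1% higher. Their median log2 fold change in the authors' deposited table was -4.50, where that of all genes tested was -0.02. The single changes in the authors' deposited table ran from -9.06 for Cenpf to -1.41 for Incenp, and the largest adjusted p among the 50 was 5.7e-14. Summed over the 50 genes, the group mean was 1377 FPKM in CON, 108 FPKM in LPS and 96.4 FPKM in ProNa. As shares of all FPKM in a group, these sums were 0.174% for CON, 0.0138% for LPS and 0.0122% for ProNa.

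The level of the median member moved from 24.4 to about 1 FPKM. In CON the members ran from 4.36 FPKM (Sgo1) to 91.4 FPKM (Cdk1). In LPS they ran from 0.02 FPKM (Depdc1a) through a median of 1.02 FPKM to 16.5 FPKM (Incenp). In ProNa they ran from a gene listed at 0 (Depdc1a) through a median of 0.938 FPKM to 15.9 FPKM (Incenp). At least 5 FPKM was reached by 49 members in CON, 6 in LPS and 4 in ProNa. By the log2 fold changes of the authors' deposited table, LPS was lower than CON by at least 2-fold for 50 members, at least 8-fold for 37, at least 32-fold for 21 and at least 128-fold for 8. The members made up 9 of the 50 lowest log2 fold changes of that comparison in the authors' deposited table, and 21 of the 200 lowest.

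**Figure D1:**
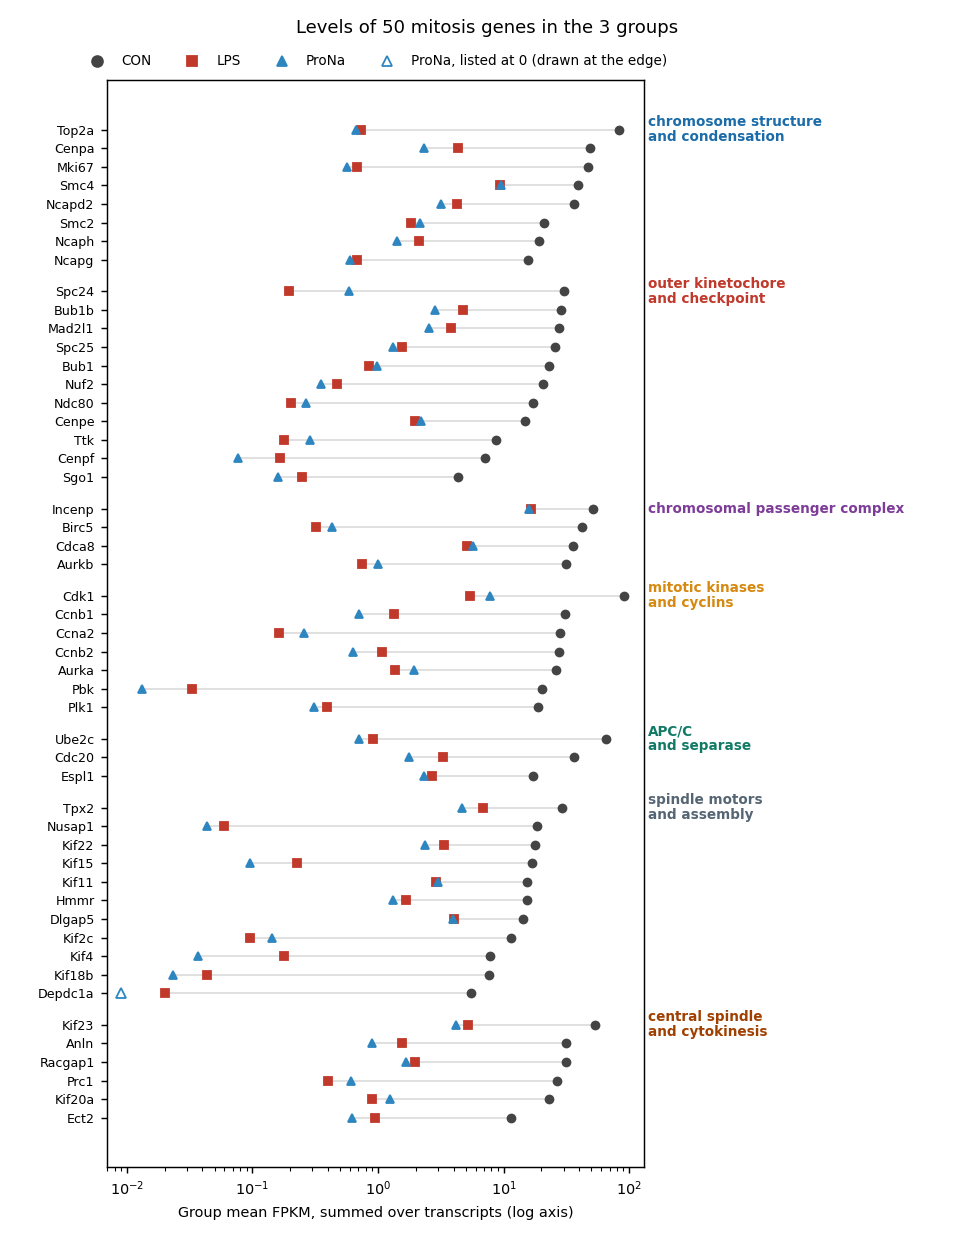
Group mean FPKM of the 50 mitosis genes on a log axis, 1 row per gene, grouped by role: circles for CON, squares for LPS, triangles for ProNa. Every CON circle lies at 4.36 FPKM or above, and the squares and triangles lie far to the left and mostly side by side; Depdc1a is listed at 0 in ProNa and drawn as an open triangle at the edge.

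Promoters of many mitotic genes hold a CCAAT box, which the factor NF-Y binds, and downstream of it a cell cycle genes homology region (CHR), TTTGAA, which the MuvB complex binds, with B-MYB and FOXM1 or as part of the DREAM repressor. The sequences shown are the 100 bases before the annotated start of 8 members, from Depdc1a to Kif22 in the order of their fold changes. They were chosen after their matches had been seen, as stretches that hold both motifs before the start. They are RefSeq sequences of build GRCm38.p6, another build than the GRCm39 of the deposited files, each written 5′ to 3′ on the strand of the gene. Capitals mark CCAAT or its reverse complement ATTGG, and TTTGAA or its reverse complement TTCAAA:
Depdc1a (chr3:159495333-159495432, plus strand): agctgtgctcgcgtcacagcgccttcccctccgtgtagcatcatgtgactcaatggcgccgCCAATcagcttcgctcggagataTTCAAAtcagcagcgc
Top2a (chr11:99024190-99024289, minus strand): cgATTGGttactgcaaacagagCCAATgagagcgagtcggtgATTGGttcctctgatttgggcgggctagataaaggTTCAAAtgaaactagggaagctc
Ube2c (chr2:164769829-164769928, plus strand): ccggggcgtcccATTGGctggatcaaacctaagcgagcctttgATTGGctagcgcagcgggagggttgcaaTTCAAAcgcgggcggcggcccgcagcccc
Kif11 (chr19:37376282-37376381, plus strand): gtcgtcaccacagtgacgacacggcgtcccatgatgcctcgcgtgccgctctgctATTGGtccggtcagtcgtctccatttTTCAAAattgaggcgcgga
Cdk1 (chr10:69352913-69353012, minus strand): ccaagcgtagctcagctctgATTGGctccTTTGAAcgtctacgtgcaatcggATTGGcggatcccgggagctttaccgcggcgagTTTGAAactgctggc
Cdc20 (chr4:118437344-118437443, minus strand): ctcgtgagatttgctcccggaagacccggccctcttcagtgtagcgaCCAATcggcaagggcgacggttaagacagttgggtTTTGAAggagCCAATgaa
Espl1 (chr15:102296193-102296292, plus strand): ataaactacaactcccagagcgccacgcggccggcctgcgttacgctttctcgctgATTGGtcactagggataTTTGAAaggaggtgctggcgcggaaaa
Kif22 (chr7:127042421-127042520, minus strand): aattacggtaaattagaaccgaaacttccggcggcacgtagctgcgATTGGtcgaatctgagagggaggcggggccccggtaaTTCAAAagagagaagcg

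Most member promoters had a CHR match close to the start. Of the 50 members, 41 had an entry in the promoter table, with 43 promoters that run from 250 bases before to 50 after the start; Aurkb, Ccna2, Dlgap5, Incenp, Kif20a, Pbk, Smc4, Spc24 and Tpx2 are named only. CCAAT, searched on both strands, was in 34 of the 43 (79.1%) and in 37.4% of all 32851 promoters of that length. TTTGAA on either strand was in 34 of the 43 (79.1%) and in 17.9% of all promoters, and both motifs together were in 30 (69.8%) and in 6.95%. In 31 of the 43 promoters (72.1%) a TTTGAA match began between 30 bases before and 50 bases after the start, against 3.83% of all promoters. Those limits were not set in advance, and the other motifs were not counted within them. Among only the 14534 promoters of genes tested in LPS against CON, the shares were 37.9% for CCAAT, 13.4% for TTTGAA and 5.48% for both. An E2F site, TTTGGCGC or TTTCGCGC on either strand, was in 3 of the 43 (6.98%), in 0.813% of all promoters and in 1.43% of those of tested genes. None of these motifs contains another.

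In 20 of the 43 promoters (46.5%) TTTGAA began 20 to 45 bases after CCAAT, a spacing found in 1.02% of all promoters. That range of distances was chosen after the positions had been seen, and the promoters of Ect2 and Prc1 are each listed as a pair of overlapping entries. In the sequences above, the distance is 23 bases in Depdc1a, 26 in Kif11, 28 in Ube2c, 33 in Cdk1, 35 in Top2a and Cdc20 and 37 in Kif22, while in Espl1 the matches, at -44 and -27 from the start, lie closer together than that range. The median log2 fold change for LPS against CON in the authors' deposited table was -4.39 for the 32 members with TTTGAA and -4.58 for the 9 without, a description with no test. Among genes that are no members, 126 tested genes had the spaced pair. The authors' deposited table calls 44.4% of these 126 lower and 23.0% higher in LPS. Of all 11481 tested non-members with a promoter entry, these 126 included, it calls 31.0% lower and 32.6% higher. Only the members were left out, so other cell division genes may be among the 126. Whether the pair goes with the fall apart from such genes was not tested. A match describes the letters of the window and does not show that a factor binds there, and no value of these data measures binding.

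**Figure D2:**
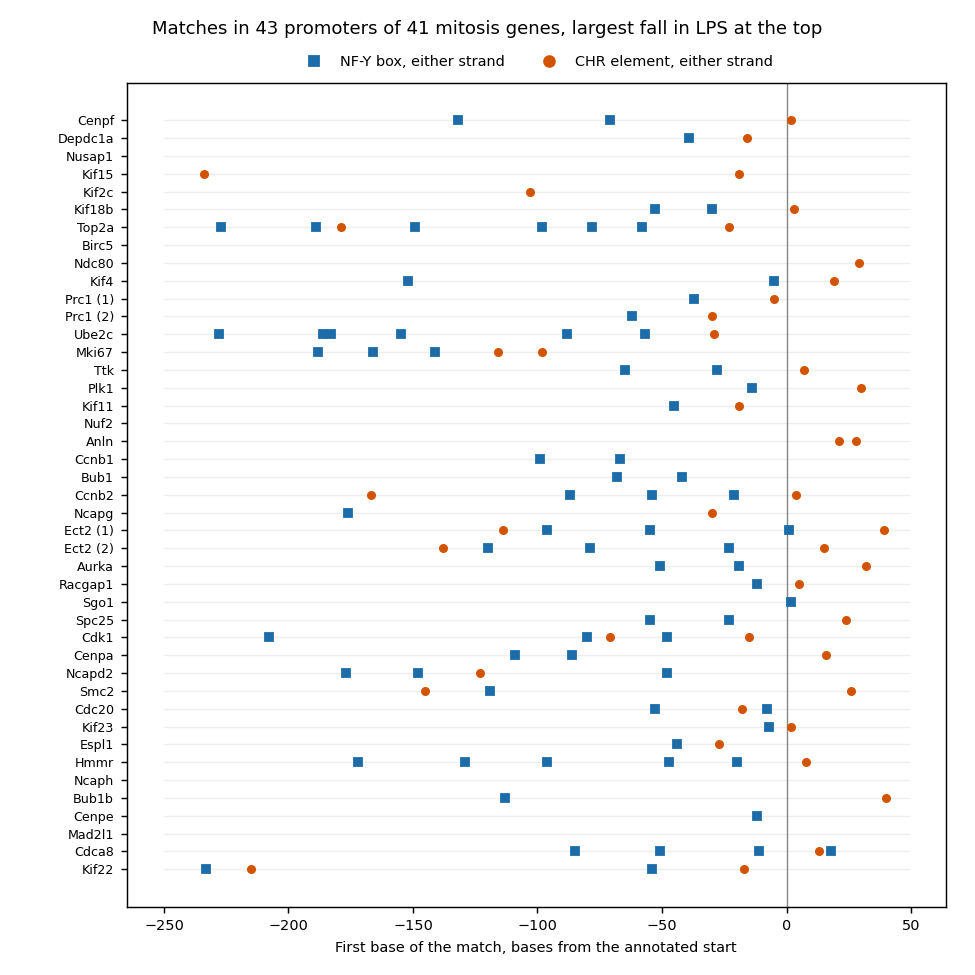
Position of each match in the 43 promoters of 41 members, in bases from the annotated start, with the largest fall in LPS at the top: squares for the NF-Y box (34 promoters with one) and circles for the CHR element (34 promoters). The circles gather between 30 bases before and 50 after the start in 31 promoters, with squares mostly upstream of them.

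Genes of chromosome structure and condensation fell in 8 of 8 cases in LPS, and their median log2 fold change in the authors' deposited table was -3.26. Top2a (ENSMUSG00000020914), the topoisomerase that untangles sister chromatids and one of the most abundant members, stood at 82.4 FPKM in CON, 0.733 FPKM in LPS and 0.673 FPKM in ProNa. Its LPS level was 0.889% of that in CON. Mki67, which coats mitotic chromosomes and is the standard marker of proliferation, stood at 46.8, 0.68 and 0.563 FPKM in CON, LPS and ProNa. The condensin I subunits kept different shares of their CON means, with no test of the difference. Smc4, an ATPase shared by both condensins, kept 24.3% of its CON level, at 38.8, 9.44 and 9.47 FPKM. Ncapg, a subunit of condensin I alone, kept 4.33%, at 15.8, 0.683 and 0.60 FPKM. The other condensin genes lay between them, with Smc2 at 21.0, 1.84 and 2.17 FPKM, Ncapd2 at 36.1, 4.27 and 3.18 FPKM and Ncaph at 19.1, 2.14 and 1.41 FPKM. Cenpa, the histone H3 variant that marks centromeres, went from 49.2 FPKM in CON to 4.32 FPKM in LPS and 2.32 FPKM in ProNa.

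The 11 genes of the outer kinetochore and the spindle checkpoint all fell in LPS, and the authors' deposited table gives them a median log2 fold change of -4.58. The NDC80 complex, the microtubule-binding rod of the kinetochore, has 4 subunits. Spc24 stood at 30.2 FPKM in CON, 0.197 FPKM in LPS and 0.593 FPKM in ProNa, and Ndc80 at 17.0, 0.203 and 0.267 FPKM. Nuf2 stood at 20.6, 0.47 and 0.35 FPKM, and Spc25 at 25.8, 1.56 and 1.32 FPKM, so Spc25 kept 6.07% of its CON level in LPS and Spc24 0.651%. Among checkpoint genes, the kinase gene Bub1 stood at 22.8, 0.843 and 0.983 FPKM and Ttk, which encodes the kinase MPS1, at 8.77, 0.18 and 0.29 FPKM. Mad2l1 and Bub1b encode parts of the complex that inhibits the APC/C, and they kept more. Mad2l1 stood at 27.9, 3.83 and 2.57 FPKM, and Bub1b at 28.4, 4.72 and 2.83 FPKM. Sgo1, the protector of centromeric cohesin, was the lowest member in CON at 4.36 FPKM and reached 0.25 and 0.16 FPKM. The kinetochore kinesin Cenpe kept 13.2%, at 14.8, 1.96 and 2.22 FPKM, whereas Cenpf, a large coiled-coil protein of the kinetochore, went from 7.09 to 0.167 and 0.0767 FPKM. Its log2 fold change of -9.06 in the authors' deposited table was the lowest of all members, while the log2 ratio of its summed mean FPKM was -5.41. For members near 0 FPKM in LPS the size of a fold rests on very low values.

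The chromosomal passenger complex, which corrects faulty attachments and later guides cytokinesis, held the member that fell least and one that fell by far more. By the authors' deposited table its 4 genes fell in LPS, with log2 fold changes from -6.47 to -1.41. Birc5, which encodes survivin, stood at 42.1 FPKM in CON, 0.323 FPKM in LPS and 0.43 FPKM in ProNa, and the kinase gene Aurkb at 31.5, 0.753 and 1.01 FPKM. Cdca8, which encodes borealin, stood at 35.7, 5.08 and 5.74 FPKM. Incenp (ENSMUSG00000024660), the scaffold of the complex, stood at 51.3, 16.5 and 15.9 FPKM and kept 32.1% of its CON level in LPS, the highest share among the 50.

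Mitotic kinases and cyclins fell in 7 of 7 cases in LPS (median log2 fold change -4.80, authors' deposited table). Cdk1 (ENSMUSG00000019942), the kinase that starts mitosis, was the highest member in CON at 91.4 FPKM and stood at 5.40 FPKM in LPS and 7.81 FPKM in ProNa. Its partner cyclins kept smaller shares of their CON means, with no test of the difference. Ccna2 stood at 28.3, 0.163 and 0.26 FPKM, Ccnb1 at 30.9, 1.34 and 0.707 FPKM and Ccnb2 at 27.8, 1.09 and 0.637 FPKM. Plk1, the Polo-like kinase of spindle formation, stood at 18.8, 0.393 and 0.31 FPKM, and Aurka, the Aurora kinase of the spindle poles, at 26.0, 1.37 and 1.92 FPKM. Pbk, a kinase active in mitosis, went from 20.04 FPKM in CON to 0.0333 FPKM in LPS and 0.0133 FPKM in ProNa, and kept 0.166% in LPS, the lowest share among the 50.

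The 3 genes of the APC/C step and separase also fell in LPS by the authors' deposited table, with log2 fold changes of -5.90 for Ube2c, -3.18 for Cdc20 and -2.95 for Espl1. Ube2c, the ubiquitin-conjugating enzyme of the APC/C, stood at 65.7, 0.907 and 0.703 FPKM in CON, LPS and ProNa. Cdc20, the activator of the APC/C that the checkpoint holds, stood at 36.1, 3.28 and 1.78 FPKM. Espl1, which encodes separase, stood at 17.3, 2.71 and 2.34 FPKM.

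Spindle motors and assembly factors fell in 11 of 11 cases in LPS by the authors' deposited table and had the lowest median log2 fold change of the 7 roles, -6.21. The range within them was wide. Depdc1a, a spindle-associated gene, went from 5.48 FPKM in CON to 0.02 FPKM in LPS, and ProNa lists it at 0. Nusap1, which bundles spindle microtubules, stood at 18.6, 0.06 and 0.0433 FPKM. Tpx2, the activator of Aurora A on the spindle, stood at 29.2, 6.82 and 4.68 FPKM, and Dlgap5, a factor of kinetochore fibres, at 14.2, 4.05 and 3.98 FPKM, so each kept over 20% of its CON level in LPS. Hmmr, a spindle-pole factor, stood at 15.3, 1.67 and 1.32 FPKM. Of the kinesin motors, Kif18b stood at 7.67, 0.0433 and 0.0233 FPKM, Kif2c, a microtubule depolymerase, at 11.5, 0.0966 and 0.143 FPKM, Kif15 at 17.0, 0.227 and 0.0966 FPKM and the chromokinesin Kif4 at 7.78, 0.18 and 0.0367 FPKM. By summed FPKM, Kif11, which slides spindle poles apart, kept more, at 15.3, 2.90 and 2.99 FPKM. So did the chromokinesin Kif22, at 17.8, 3.34 and 2.35 FPKM. Their log2 fold changes in the authors' deposited table were -5.26 for Kif11 and -1.50 for Kif22, and their transcripts are described further on. By the protein domains listed with the authors' deposited table, 9 members hold a kinesin motor domain, and their log2 fold changes for LPS against CON ran from -7.49 to -1.50 with a median of -5.26. The 8 members with a protein kinase domain ran from -8.84 to -2.78 in the authors' deposited table, with a median of -4.86.

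The 6 genes of the central spindle and cytokinesis fell in LPS too, by a median log2 fold change that the authors' deposited table puts at -4.38. Prc1, which bundles the midzone microtubules, stood at 26.6, 0.397 and 0.610 FPKM in CON, LPS and ProNa, and the kinesin gene Kif20a at 23.1, 0.893 and 1.24 FPKM. Kif23 and Racgap1 form the centralspindlin complex. Kif23 stood at 53.5, 5.23 and 4.16 FPKM and Racgap1 at 31.3, 1.99 and 1.67 FPKM. Ect2, which activates RhoA at the cleavage site, stood at 11.5, 0.953 and 0.623 FPKM, and Anln, the scaffold of the contractile ring, at 31.5, 1.55 and 0.893 FPKM.

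**Figure D3:**
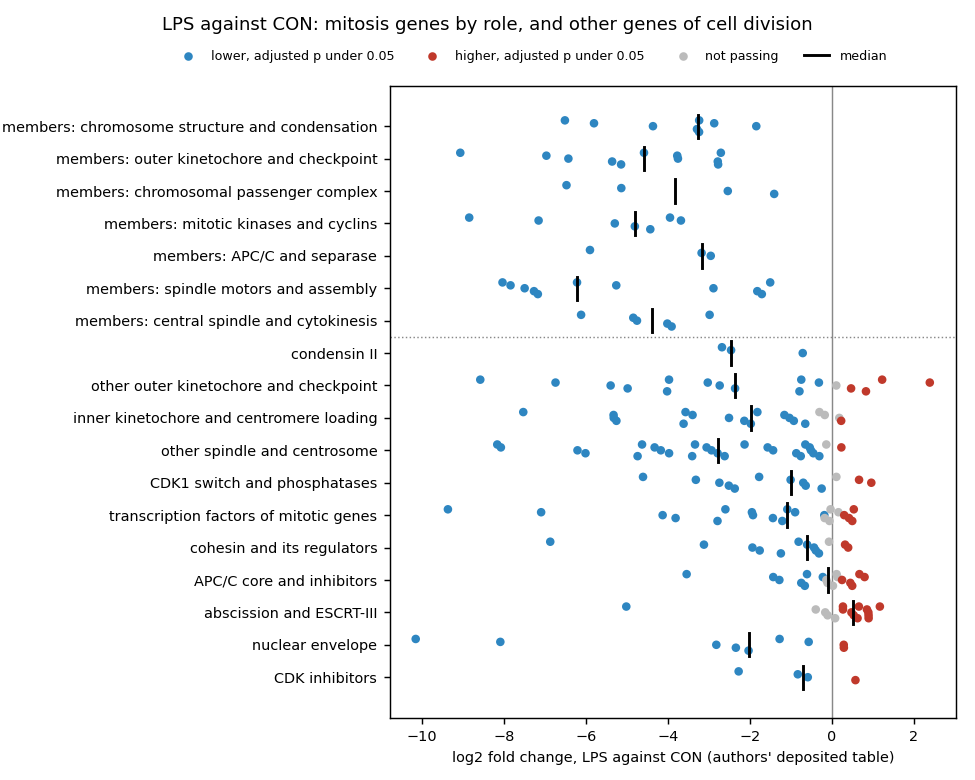
Log2 fold change of LPS against CON in the authors' deposited table, 1 point per gene with an adjusted p and a black bar at each median: 7 roles of the 50 mitosis genes above the dotted line, 11 lists of other cell division genes below it. The 50 members all lie left of 0, with medians from -6.21 to -3.18, while the abscission and ESCRT-III list has its median right of 0 at 0.51.

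Few mitosis genes differed between ProNa and LPS. An adjusted p for ProNa against LPS was given for 39 of the 50 in the authors' deposited table, and 1 was higher and 4 lower, where 16.5% of the 12732 genes tested were called higher and 14.1% lower (30.6% in either direction). The median log2 fold change of the 39 in the authors' deposited table was -0.18. The other 34 of them had log2 fold changes from -0.65 to 0.68 in the authors' deposited table, with adjusted p of 0.0715 or more. The 11 members with no adjusted p reached at most 0.593 FPKM in either group: Birc5, Cenpf, Depdc1a, Kif15, Kif18b, Kif2c, Kif4, Ndc80, Nusap1, Pbk and Spc24. A p above the threshold does not show that the groups were alike, and without values per library no interval can be given. The median member stood at 1.02 FPKM in LPS and 0.938 FPKM in ProNa. Low levels make a call less likely, so the shares over all genes are not a like measure.

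The 5 called genes sat at different steps of mitosis. Cdk1 rose from 5.40 FPKM in LPS to 7.81 FPKM in ProNa, with log2 fold change 0.72 and adjusted p 0.0046 in the authors' deposited table. Cdc20 fell from 3.28 to 1.78 FPKM, with log2 fold change -0.76 and adjusted p 0.0159 in the authors' deposited table. Cenpa fell from 4.32 to 2.32 FPKM, with log2 fold change -0.76 and adjusted p 0.0338 in the authors' deposited table. The spindle factor Tpx2 fell from 6.82 to 4.68 FPKM, with log2 fold change -0.40 and adjusted p 0.0037 in the authors' deposited table. Espl1 had the largest change of the 5 in the authors' deposited table, a log2 fold change of -1.56 with an adjusted p of 4.7e-07. Its summed level moved far less, from 2.71 to 2.34 FPKM, and its transcripts are described further on. All 5 remained far below CON, where Cdk1 stood at 91.4, Cenpa at 49.2, Cdc20 at 36.1, Tpx2 at 29.2 and Espl1 at 17.3 FPKM. Over all genes, the log2 fold change in the authors' deposited table exceeded the log2 ratio of mean FPKM by a median of 0.13 for ProNa against LPS, 0.26 for LPS against CON and 0.40 for ProNa against CON. With that shift subtracted (the FPKM scale) Cdk1 was still the 1 member called higher, and 8 were called lower, with Kif22, Kif23, Mad2l1 and Ncaph added to the 4. On that scale 29.4% of all genes called in ProNa against LPS were higher, in place of 53.9%. Over all genes the lower calls went from 1800 to 3266 and the higher calls from 2101 to 1362. The added lower members thus went along with a rise of lower calls in general.

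**Figure D4:**
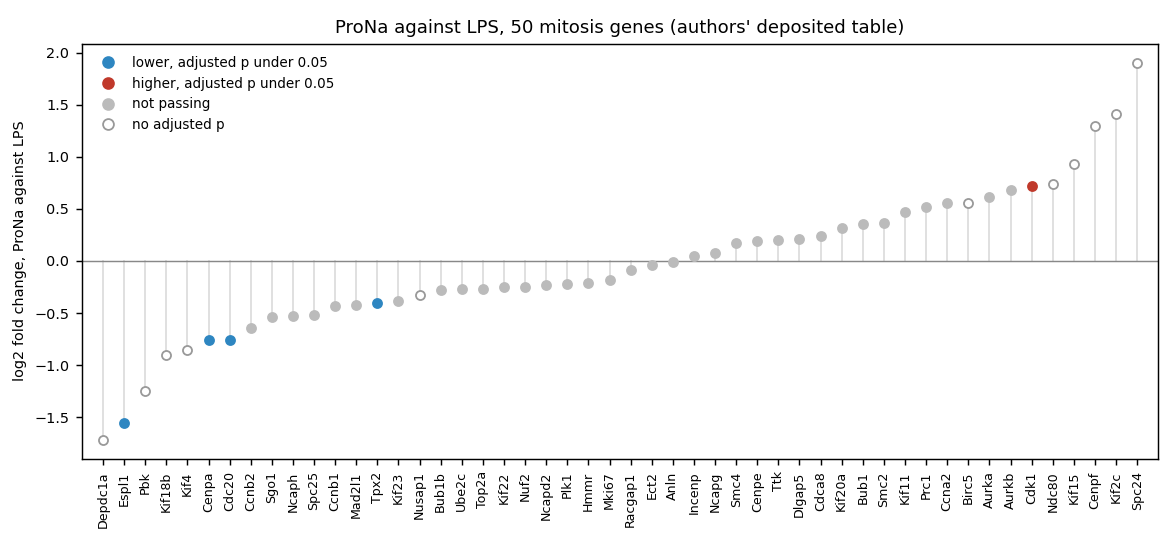
Log2 fold change of ProNa against LPS in the authors' deposited table for the 50 mitosis genes, in rising order: blue for the 4 called lower, red for Cdk1, the 1 called higher, grey for the 34 not passing and open circles for the 11 with no adjusted p. The largest values at either end are mostly open circles, members of at most 0.593 FPKM in LPS and ProNa.

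Against CON, the ProNa group had all 50 members lower. The authors' deposited table calls 50 of 50 lower for ProNa against CON, where 54.4% of the 18540 genes tested were called, 26.6% lower and 27.7% higher. The median log2 fold change in the authors' deposited table was -4.44, with single changes from -10.18 for Pbk to -1.35 for Incenp and a largest adjusted p of 1.6e-15. By roles, the medians in the authors' deposited table ran from -5.84 for the spindle motors and assembly factors to -3.37 for the chromosomal passenger complex. This comparison shares CON with that of LPS against CON, and the LPS group enters both other comparisons, so the 3 are not independent. On the FPKM scale 50 of 50 members stayed lower in both comparisons with CON, while the higher share of all called genes went from 50.8% to 37.4% for LPS and from 51.0% to 31.9% for ProNa.

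For some members, such as Kif11 and Kif22, the sum over transcripts hid a larger fall of a coding transcript. The share of coding transcripts was lower in LPS than in CON for 25 of the 50, and equal or higher for the others. The 50 genes had 344 transcripts in the FPKM table, 317 from the reference annotation and 27 assembled from the reads. The highest transcript in CON was protein coding for 45 of the 50 genes, and a different transcript was the highest in LPS for 17. In the median gene 4.63% of the CON level was left in LPS over all transcripts, and 3.17% of the leading CON transcript. The leading transcript kept a smaller share than its gene in 30 members. It was picked as the highest in CON, which by itself favours a larger fall and a change of the leading transcript. Of the members' FPKM, protein-coding transcripts held 73.9% in CON, 65.4% in LPS and 66.9% in ProNa. Transcripts with a retained intron made up 8.27%, 15.7% and 14.1%. No such shares over all genes stand beside these, so they do not show a trait particular to the mitosis genes. The shares in LPS are parts of only 108 FPKM, where single short transcripts weigh more. The kind of each reference transcript was taken by identifier from GENCODE M21, and these are the authors' group means, with no test.

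Kif11 is one example. Its coding transcript of 4819 bases went from 15.0 FPKM in CON to 0.27 FPKM in LPS and 0.353 FPKM in ProNa, while an assembled transcript of 335 bases went from 0.217 to 2.62 and 2.63 FPKM. The summed Kif11 level therefore kept 19.0% of CON, where the log2 fold change in the authors' deposited table was -5.26. The coding Kif22 transcript of 2115 bases had 9.48 FPKM in CON but is listed at 0 in both other groups, and an assembled transcript of 5357 bases held 3.41, 2 and 1.64 FPKM. At the level of the gene Kif22 went the other way from Kif11. Its log2 fold change in the authors' deposited table, -1.50, was a smaller fall than the log2 ratio of its summed mean FPKM, -2.41. The Cenpf transcript of 11130 bases went from 7 FPKM to 0.01 and 0.02 FPKM. For Espl1 the coding transcript of 6658 bases went from 6.11 FPKM in CON to 0.73 FPKM in LPS and 0.0433 FPKM in ProNa, whereas a retained-intron transcript of 296 bases stood at 5.27, 1.49 and 1.74 FPKM. The coding Cdk1 transcript of 1253 bases stood at 32.1, 1.91 and 3.67 FPKM and the leading Tpx2 transcript of 3483 bases at 11.9, 4.03 and 2.28 FPKM, so both moved between LPS and ProNa in the direction of the gene.

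**Figure D5:**
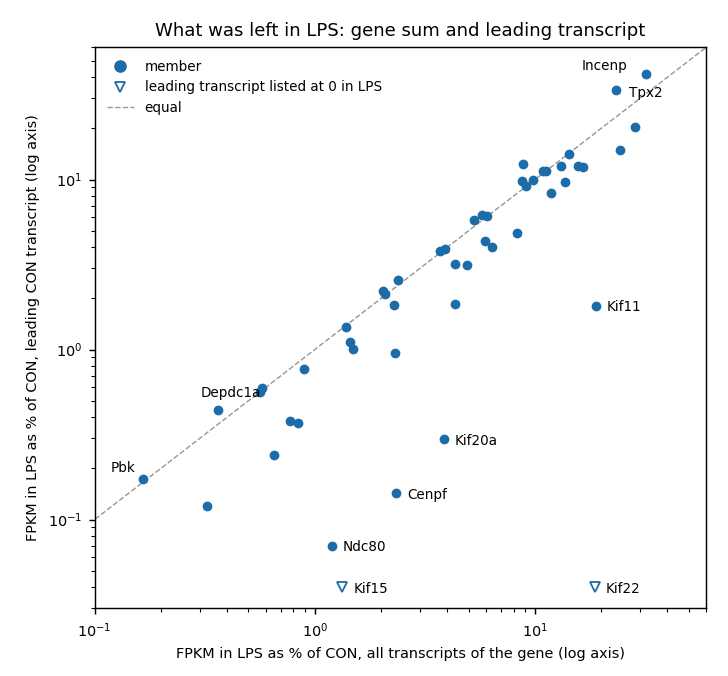
FPKM in LPS as a percentage of CON for the 50 mitosis genes on log axes: all transcripts of the gene across, the leading CON transcript upwards, with a dashed line of equality. Most points lie near the line, while Kif11, Kif20a, Cenpf and Ndc80 lie far below it, and the leading transcripts of Kif15 and Kif22 are listed at 0 in LPS and drawn as open triangles at the bottom.

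Other genes of cell division were called in both directions. Across 11 lists of 163 further genes, 159 had an adjusted p for LPS against CON in the authors' deposited table, and 106 fell and 33 rose, where 27.2% of all genes tested were lower and 28.1% higher, with a median log2 fold change of -0.83. The spindle and centrosome list had 25 of 27 lower and 1 higher in the authors' deposited table, among them Tacc3, a factor of kinetochore fibres, at 30.1, 2.56 and 3.22 FPKM in CON, LPS and ProNa. Aspm, a spindle-pole gene, stood at 5.13, 0.577 and 0.16 FPKM. The authors' deposited table calls 15 of 19 inner kinetochore genes lower and 1 higher, or 17 and 0 on the FPKM scale. On that scale 6365 of all genes were called lower and 3806 higher, in place of 4845 and 5005. Cenpi stood at 6.63, 0.523 and 0.597 FPKM, whereas Cenpc1, the scaffold of the inner kinetochore, stood at 14.8, 14.3 and 15.7 FPKM and was the 1 called higher in LPS. The condensin II gene Ncapd3 stood at 24.6, 4.09 and 3.39 FPKM. In the authors' deposited table the condensin II list had 3 of 3 lower, and cohesin and its regulators 10 of 13 lower with a median of only -0.60.

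The kinetochore gene Zwint went the other way. Zwint, which recruits the checkpoint complex RZZ, stood at 36.3 FPKM in CON, 162 FPKM in LPS and 205 FPKM in ProNa. Its log2 fold change was 2.39 with an adjusted p of 3.5e-243 for LPS against CON, and 0.46 with 3.2e-13 for ProNa against LPS, in the authors' deposited table. Its highest coding transcript, of 1834 bases, stood at 26.8, 124 and 158 FPKM, and a second of 1138 bases at 6.92, 31.6 and 41.2 FPKM. Other genes of the same list fell in LPS by the authors' deposited table, with Zwilch, a subunit of RZZ, at 26.4, 0.793 and 1.15 FPKM and Kntc1, another, at 7.79, 0.523 and 0.797 FPKM. Of that list the authors' deposited table calls 12 of 17 lower and 4 higher, where 27.2% of all genes tested were lower and 28.1% higher.

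Of 16 abscission and ESCRT-III genes, which cut the last bridge between daughter cells and also serve other membrane events, 11 rose and 1 fell in LPS by the authors' deposited table, or 8 and 3 on the FPKM scale. Chmp4b stood at 110, 169 and 243 FPKM, while the 1 that fell, the cytokinesis kinase gene Cit, stood at 6.35, 0.107 and 0.143 FPKM. Of 17 genes of the APC/C core and its inhibitors 7 were lower and 5 higher by the authors' deposited table, or 10 and 3 on the FPKM scale. Of all genes tested, 27.2% were lower and 28.1% higher by that table. Anapc7 stood at 15.5, 22.2 and 18.2 FPKM and Anapc5 at 60.8, 20.3 and 24.5 FPKM. Fbxo5, which encodes the APC/C inhibitor EMI1, stood at 11.4, 0.813 and 0.66 FPKM. The authors' deposited table calls 7 of 9 nuclear envelope genes lower and 2 higher, Lmna and Emd, which did not pass on the FPKM scale. Lmnb1, a B-type lamin, stood at 36.8, 7.59 and 4.50 FPKM and Lmna at 396, 410 and 436 FPKM.

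Regulators of the members fell as well, but not all of them. Of 21 transcription factor genes tested, 13 fell and 4 rose in LPS by the authors' deposited table, or 16 and 0 on the FPKM scale. Of all genes tested, 27.2% were lower and 28.1% higher by that table. The FPKM scale moved the calls of all genes the same way, from 4845 to 6365 lower and from 5005 to 3806 higher. Foxm1, the forkhead factor of mitotic genes, stood at 27.6 FPKM in CON, 2.98 FPKM in LPS and 3.98 FPKM in ProNa, and Mybl2, which encodes B-MYB, at 16.3, 1.18 and 1.02 FPKM. Foxm1 was called higher in ProNa than in LPS, with log2 fold change 0.38 and adjusted p 0.0378 in the authors' deposited table, but did not pass on the FPKM scale. The gene of the NF-Y subunit Nfya, at 38.8, 47.7 and 47.8 FPKM, did not pass for LPS against CON in the authors' deposited table, but was called higher for ProNa against CON. Another NF-Y subunit gene, Nfyc, was among the 4 called higher in LPS by that table, as were Lin37 and Lin52. On the FPKM scale 0 of the list were called higher in either comparison with CON. Among regulators of CDK1, 10 of 13 fell and 2 rose in LPS by the authors' deposited table, and Cdc25b, the activating phosphatase, stood at 33.6, 4.57 and 4.82 FPKM. Wee1, the inhibitory kinase, had opposite signs on the 2 measures: its log2 fold change was -3.32 in the authors' deposited table, while its summed level went from 12.5 FPKM in CON to 19.8 FPKM in LPS and 33.6 FPKM in ProNa. An assembled Wee1 transcript of 203 bases held 4.76, 19.3 and 33.1 FPKM, and the coding transcript of 3419 bases went from 7.70 to 0.573 and 0.50 FPKM.

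Cdkn1a, which encodes the CDK inhibitor p21, was the 1 inhibitor gene of 4 tested that rose in LPS, and it rose again in ProNa. Of the 7 inhibitor genes listed only these 4 had an adjusted p, and the other 3 of them were called lower in LPS. Of all genes tested, 28.1% were higher and 27.2% lower. In ProNa against LPS 1 of the 4 was called higher and 1 lower, where 16.5% and 14.1% of all genes tested were. It stood at 238 FPKM in CON, 260 FPKM in LPS and 346 FPKM in ProNa, with log2 fold changes of 0.58 for LPS against CON and 0.55 for ProNa against LPS in the authors' deposited table, both also called higher on the FPKM scale. Cdkn2c stood at 15.4, 3.42 and 3.37 FPKM and Cdkn1b at 23.7, 15.8 and 11.4 FPKM. Pttg1, which encodes securin, the inhibitor of separase, stood at 38.2, 9.48 and 16.1 FPKM. It fell in LPS and was higher in ProNa than in LPS, with log2 fold change 0.89 and adjusted p 0.0013 in the authors' deposited table, while the separase gene Espl1 was lower.

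The label of the cells was checked against markers. Of 10 macrophage markers 9 reached 1 FPKM in a group. The summed level of the 10 was 12863 FPKM in CON, 3503 FPKM in LPS and 4930 FPKM in ProNa. The authors' deposited table calls 5 of the 10 higher and 4 lower in LPS than in CON, or 3 and 5 on the FPKM scale. Of all genes tested, 28.1% were higher and 27.2% lower by that table. The FPKM scale moved the calls of all genes from 5005 to 3806 higher and from 4845 to 6365 lower. Lyz2, with 9719, 661 and 1586 FPKM, made up most of the sum in CON, and Cd14 stood at 757, 1406 and 1975 FPKM. The extraction text speaks of colonic segments, but 10 of 10 epithelial markers stayed under 1 FPKM in every group, with sums of 0.16, 0.17 and 0.0367 FPKM, and Epcam, Cdh1, Cdx2, Krt20 and Car1 were listed at 0 in all. Of 8 lymphocyte markers 0 reached 1 FPKM, and Cd3e, Cd3d, Cd4 and Cd8a were listed at 0. The fibroblast and smooth muscle markers summed to 1.41, 14.1 and 17.8 FPKM, and in LPS and ProNa nearly all of it was Acta2. The 5 endothelial markers summed to 0.957, 1.65 and 0.79 FPKM. The part of these shifts in the results on mitosis genes was not tested.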

How the data were processed

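RNA from 9 samples, 3 per group by title, was sequenced by the submitters. The tools were HISAT2, StringTie and DESeq2 on build GRCm39, per the submitters' processing notes. Versions, strand handling and read totals are not given in the sources used here. The depth is therefore unknown, and whether reads of genes overlapping on opposite strands were kept apart is not known. Of 3 deposited files 2 were used. The first holds FPKM per transcript, per the file headers, of which the authors' group mean columns CON, LPS and ProNa were used and summed by gene. Its other 9 columns, of per-library values, match no label and were used in no step. The second, the authors' deposited table, gives log2 fold changes, p-values and adjusted p-values per gene, per the file headers. Fold sizes come from those log2 values. A fit to values per library could not be run, so the authors' tests took its place, and no SD is given. The adjusted p-values match a Benjamini-Hochberg adjustment over 17795, 12732 and 18540 genes. Genes listed at exactly 1 lie outside it and were treated as having none. Some adjusted p-values are printed as 0.

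The members, roles, 11 lists and tests were chosen with earlier results of these data known. Named were all 50 members by role and, from the lists, genes among the 3 with the smallest adjusted p or up to 3 against the list's majority. Values were computed with Python 3.11.15 and pandas 2.3.3, and the recalculation on the FPKM scale was tested on simulated data. Alternatives were a stricter adjusted p, a 2-fold minimum, a filter on mean FPKM, the FPKM scale, ratios of FPKM with pseudocounts, values rescaled to a common total, subsets of transcripts and a shorter promoter window.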

Additional observations from a re-analysis of the deposited data

How the results depend on the processing

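No paired analysis was possible because the columns used carry no replicate numbers, and for the same reason no library could be left out in turn. The counts of 50 lower members in both comparisons with CON held under every alternative run on them: an adjusted p under 0.01, a 2-fold minimum and the FPKM scale. A minimum mean of 1 FPKM removed no member. In ProNa against LPS the count of lower members went from 4 to 2 at an adjusted p under 0.01, to 1 with a 2-fold minimum and to 8 on the FPKM scale, and the count of higher members from 1 to 0 with a 2-fold minimum. The median log2 fold change of LPS against CON, -4.50, became -3.72 as a ratio of FPKM plus 0.5, -3.28 with 1 added, -3.86 after rescaling to a common total, -3.67 over reference transcripts and -3.64 over protein-coding ones; that of ProNa against CON, -4.44, became -3.40 with 1 added, -3.82 over reference transcripts and -3.86 over protein-coding ones. A pseudocount understates the change of low genes. The protein-coding subset and the FPKM ratios of single members were chosen after seeing the data; of 150 single-member values 53 moved as ratios of FPKM plus 0.5, and none changed sign where it had been called. With promoters cut to 150 bases before the start, TTTGAA was in 39.5% in place of 79.1% (all promoters 9.07% in place of 17.9%), both motifs in 32.6% in place of 69.8% (2.24% in place of 6.95%) and the spaced pair in 23.3% in place of 46.5% (0.499% in place of 1.02%), a window that leaves out matches after the start, where 15 promoters had their only ones.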
